A study of Drosophila melanogaster with 3 samples.

Results

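Small nucleolar RNA (snoRNA) genes and the genes whose introns hold them were examined in a map of where CG15011 lies on chromatin in Drosophila melanogaster embryos. All 269 genes of biotype snoRNA on the main chromosome arms of the Ensembl release 115 annotation were taken, out of 18164 genes in all, small Cajal body RNAs (scaRNAs) included. A gene counted as host when the snoRNA lay in an intron of one of its transcripts on the same strand. By this rule 243 snoRNAs lay in 88 hosts, 80 of them protein-coding and 8 non-coding, and 26 had no host. The embryos were 0 to 24 h old, of both sexes, from a transgenic line with green fluorescent protein (GFP) fused to the C-terminal end of CG15011. Chromatin immunoprecipitation followed by sequencing was done in 3 biological replicates, which form 1 group. The sources do not say what drives the transgene. There is no untagged or untreated group, so every comparison sets the snoRNA hosts against other genes of the same libraries. A text label calls each sample an input control, but the deposited notes derive each peak list from the replicate's own alignment set against a separate control alignment, and the samples were read as immunoprecipitated libraries.

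Each replicate list and the list called on the pooled replicates hold 30000 peaks, of which 29999 in replicate 1 and all in the others lie on the arms used. The authors' optimal set holds 3237 peaks, and these are the 3237 strongest pooled ones, so their presence in the replicates that were pooled is partly built in. The signal of a peak is the authors' own value, and it is compared only within a list, as is the rank made from it. The summit is the position within a peak that the authors gave as its highest point. Where that position fell outside the peak, the middle of the peak was used (2 peaks each in the optimal set, the pooled list and replicate 3). Read depth is unknown, so the exact binomial (Clopper-Pearson) 95% intervals below cover the counting of genes only.

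SnoRNAs guide the chemical modification of other RNAs, above all ribosomal RNA, in the nucleolus. C/D snoRNAs carry a C box and a D box and direct methylation of the ribose with the enzyme fibrillarin, and H/ACA snoRNAs end in an ACA box and direct the change of uridine to pseudouridine with dyskerin, which is Nop60B in the fly. scaRNAs do the same for spliceosomal RNAs in Cajal bodies. In animals many snoRNAs have no promoter of their own: they are cut out of the introns of a host transcript, often one that encodes a ribosomal protein or a translation factor. Some hosts, named Uhg in the fly, appear to make no protein, and their introns are the part that is used.

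The snoRNAs shown here lie within 500 bp of an optimal summit in a host promoter, apart from snoRNA:Me18S-G1620, the next snoRNA of the same host, at 566 bp. The sequences are of the RefSeq Release 6 genome (dm6) and run 5′ to 3′ on the snoRNA's strand. Capitals mark a C box (TGATGA, searched in the first 25 bases) and a D box (CTGA, searched in the last 20), or an ACA box (searched in the last 8).
snoRNA:Me18S-A1576 (Uhg2 intron, chr2L:9894795-9894907, minus strand): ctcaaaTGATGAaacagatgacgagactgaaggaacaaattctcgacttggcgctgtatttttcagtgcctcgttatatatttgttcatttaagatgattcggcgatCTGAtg
snoRNA:Me18S-G1620 (Uhg2 intron, chr2L:9894477-9894544, minus strand): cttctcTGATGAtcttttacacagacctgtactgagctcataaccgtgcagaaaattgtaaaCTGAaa
snoRNA:Me28S-A774b (RpS12 intron, chr3L:13023580-13023652, plus strand): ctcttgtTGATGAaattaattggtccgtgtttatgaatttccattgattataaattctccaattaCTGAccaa
snoRNA:Or-CD11a (RpL28 intron, chr3L:3222475-3222541, minus strand): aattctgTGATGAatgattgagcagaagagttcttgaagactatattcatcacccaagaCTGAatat
snoRNA:Psi18S-920 (RpL10Ab intron, chr3L:11822984-11823124, plus strand): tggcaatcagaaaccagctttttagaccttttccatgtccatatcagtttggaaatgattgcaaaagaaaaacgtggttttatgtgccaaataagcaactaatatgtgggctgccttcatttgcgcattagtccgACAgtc
snoRNA:Psi18S-1275 (RpS29 intron, chr3R:9778398-9778537, plus strand): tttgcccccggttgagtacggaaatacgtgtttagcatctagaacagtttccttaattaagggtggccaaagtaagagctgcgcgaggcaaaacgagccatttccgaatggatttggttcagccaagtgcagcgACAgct
snoRNA:Psi28S-1232 (RpL17 intron, chrX:6743675-6743815, minus strand): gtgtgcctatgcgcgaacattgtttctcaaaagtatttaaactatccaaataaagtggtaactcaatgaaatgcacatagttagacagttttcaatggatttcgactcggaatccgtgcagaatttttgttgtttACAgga

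Upstream sequences of 5 hosts show where those summits lie. They run towards the host gene, lie within 100 bp of the summit, and were shortened so as to end before the transcription start site (TSS) and outside annotated untranslated regions. Capitals mark matches on either strand to the replication-related element TATCGATA, its core CGATA, the Motif 1 core GGTCACAC, the E-box CACGTG, the Motif 5 core CAGCTG, the repeat GAGAG, the pyrimidine run TCTTTC or the heat shock motif TTCTAGAA. RpL28, RpS12 and RpL10Ab, which encode ribosomal proteins, hold the DNA replication-related element TATCGATA. The shortened stretches of RpS29 and RpL17, whose snoRNAs are shown above, held no match and are not shown. The examples therefore give no share of hosts: in 200 bp around the summit TATCGATA matched at 4 of 37 hosts (10.8%). The upstream stretch of Uhg2 holds its core CGATA and an E-box, CACGTG. CG1142, the host with the strongest peak, had no match in this stretch.
RpL28 (chr3L:3222961-3223121, minus strand): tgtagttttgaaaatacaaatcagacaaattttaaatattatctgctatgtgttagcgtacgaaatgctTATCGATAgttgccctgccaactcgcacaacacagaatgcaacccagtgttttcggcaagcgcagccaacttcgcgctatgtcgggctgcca
RpS12 (chr3L:13023249-13023351, plus strand): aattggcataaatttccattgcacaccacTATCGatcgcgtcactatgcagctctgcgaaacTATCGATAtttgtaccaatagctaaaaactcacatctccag
RpL10Ab (chr3L:11822685-11822850, plus strand): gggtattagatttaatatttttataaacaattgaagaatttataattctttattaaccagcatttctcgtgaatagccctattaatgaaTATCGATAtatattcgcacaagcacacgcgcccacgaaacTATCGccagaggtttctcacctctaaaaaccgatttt
Uhg2 (chr2L:9895010-9895209, minus strand): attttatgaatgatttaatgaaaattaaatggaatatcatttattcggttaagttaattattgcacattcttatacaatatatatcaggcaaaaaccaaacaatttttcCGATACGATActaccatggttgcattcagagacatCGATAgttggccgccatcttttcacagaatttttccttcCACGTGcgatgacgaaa
CG1142 (chr3R:7473862-7474061, minus strand): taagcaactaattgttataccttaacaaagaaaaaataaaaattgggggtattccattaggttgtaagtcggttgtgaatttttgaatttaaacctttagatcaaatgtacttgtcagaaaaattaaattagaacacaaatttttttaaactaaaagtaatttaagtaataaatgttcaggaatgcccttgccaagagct

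The snoRNAs themselves were seldom close to a summit, and the summits near hosted snoRNAs lay upstream of them, mostly at the host TSS. Of the 269 snoRNAs, 11 (4.09%), in 8 hosts plus 2 snoRNAs without a host, started within 500 bp of an optimal summit. Over all genes 7.79% had one within 500 bp of the 5′ end. Within 1000 bp the count was 39 snoRNAs (14.5%), in 23 hosts plus 5 snoRNAs without a host, and over all genes the share was 10.3%. The order of the snoRNAs and of all genes thus turned between the narrower and the wider window. With the 3237 strongest peaks of replicates 1, 2 and 3 in place of the optimal set, 11, 11 and 11 snoRNAs lay within 500 bp and 40, 43 and 40 within 1000 bp (41.0 ± 1.73, SD, n = 3). With optimal peaks kept only where both other replicates had them among their strongest, the count within 500 bp was 6, 7 and 7 without replicates 1, 2 and 3 (2.23%, 2.6% and 2.6%), while the share of all genes was 5.34%, 5.21% and 6.29%. In the pooled list 47 snoRNAs (17.5%) had a summit within 500 bp, against 29.1% of all genes, and 100 (37.2%) within 1000 bp, against 40.5%. The 47 were 33 of the 243 hosted snoRNAs and 14 of the 26 without a host. Hosted snoRNAs thus stood below the all-gene share of 29.1%, and those without a host above it. SnoRNAs of 1 host share its promoter and are not independent. Some of those without a host lie close together too, in introns of egr on its opposite strand and at 2R, 13557539 to 13558055. No interval is therefore given over snoRNAs.

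Of the 11 snoRNAs within 500 bp, 5 lay in ribosomal protein hosts. snoRNA:Psi18S-920 lay 199 bp downstream of the summit at RpL10Ab (3L, 11822563 to 11823006, signal 164, rank 3072 of 3237), and the peak there ranked 3363, 2974 and 4196 in replicates 1, 2 and 3. That host peak was the weakest of those in the optimal set. snoRNA:Me28S-A774b in RpS12 lay 231 bp from a summit of rank 1412, which ranked 935, 1799 and 1738 in the replicates. snoRNA:Psi18S-1275 in RpS29 lay 352 bp from a summit of rank 1660, with ranks of 1748, 1201 and 6133, so replicate 3 stood lower there than the other two. snoRNA:Psi28S-1232 in RpL17 lay 403 bp from a summit of rank 825, with ranks of 767, 633 and 795. snoRNA:Or-CD11a in RpL28 lay 481 bp from a summit of rank 221, with ranks of 250, 203 and 306. The peaks at RpL17, RpL28 and RpS12 were among the 3237 strongest peaks in every replicate.

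Non-coding hosts gave 3 more. In Uhg2 (chromosome 2L), snoRNA:Me18S-A1576 lay 203 bp from a summit with a signal of 306 and rank 1142, and the replicates ranked it 1526, 1074 and 1397. In Uhg4 a summit of signal 691 and rank 252 lay 155 bp upstream of snoRNA:Psi28S-2949 and 468 bp upstream of snoRNA:Or-aca5. This Uhg4 peak ranked 147 and 433 in replicates 1 and 3, and replicate 2 listed no peak there. Its nearest summit in replicate 2 was 1235 bp away, at rank 15851.

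**Figure D1:**
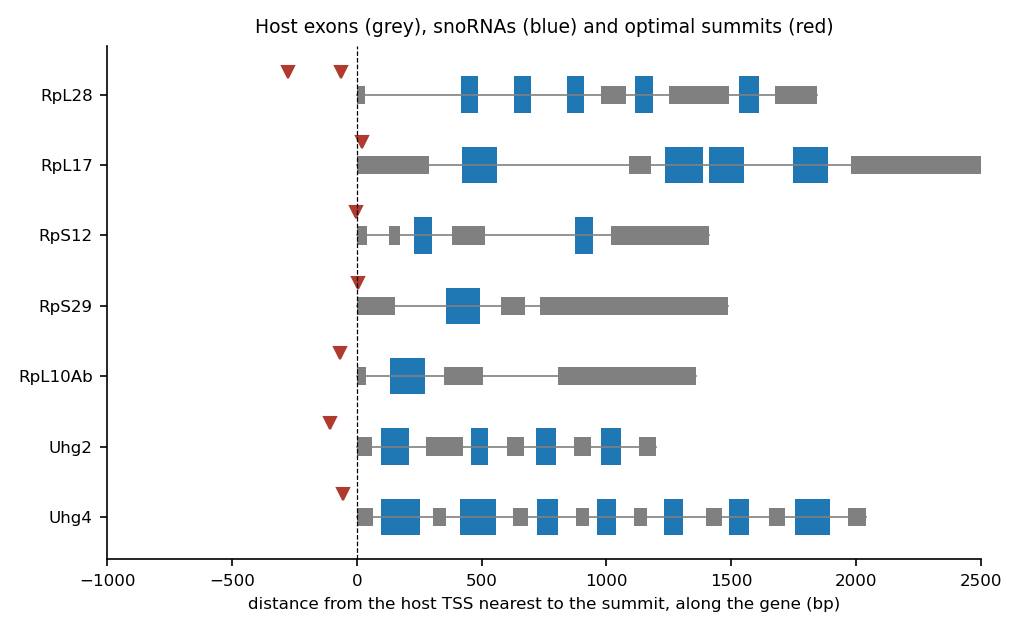
Position of optimal summits (red triangles), exons (grey boxes) and snoRNAs (blue boxes) in 7 hosts, plotted as distance in bp from the host TSS nearest to the summit, with transcription to the right. Every summit drawn lies upstream of all the snoRNAs of its host. RpL28 has 2 summits, and RpL17 runs on past the right edge.

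snoRNA:abba-a was the only snoRNA in a host without an optimal TSS summit that lay within 1000 bp of an optimal summit. It lies in tn, the fly gene of the TRIM32 family, 3659 bp from the nearest upstream TSS of tn, with a summit 493 bp upstream of it. That peak ranked 2955, and 25362, 2094 and 3205 in replicates 1, 2 and 3, so replicate 1 placed it far lower than the others. The remaining pair had no host. snoRNA:185 (2R, 19727098 to 19727152) started 3 bp from a summit of signal 195 and rank 2359, which also lay within 500 bp of the TSS of tRNA:Glu-TTC-1-5, a glutamate transfer RNA gene. Ranks there were 2334 and 2232 in replicates 1 and 2, and the nearest summit of replicate 3 was 257 bp away, at rank 2914. snoRNA:185 held the 1 optimal summit found inside a snoRNA, while 8 pooled summits lay inside one. snoRNA:Or-ACA6 lay 425 bp from a summit of signal 407.

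Between 501 and 1000 bp another 28 snoRNAs were added, 17 of them in 12 ribosomal protein hosts (the prefix snoRNA: is left out from here on). RpL14 (U49:66Da at 503 bp, U49:66Db at 978 bp), RpL3 (Me18S-C1096 at 522 bp, Me18S-A425 at 958 bp), RpS20 (Psi18S-1295 at 587 bp, Psi28S-2562 at 903 bp), RpL13A (Me28S-U2134b at 772 bp, Me28S-U2134a at 961 bp) and RpL28 (Or-CD11b at 693 bp, Or-CD11c at 906 bp) each gave 2. RpL30, RpL27A, RpS16, RpL11, RpS7, RpS12 and RpS4 each gave 1, from 610 bp (Me28S-A2113 in RpL30) to 977 bp (Psi28S-3327a in RpS4). Non-coding hosts gave 3, with Me18S-G1620 at 566 bp and U14:30Ea at 825 bp in Uhg2 and Me28S-G3255a at 779 bp in Uhg4. Other protein-coding hosts gave 5: scaRNA:MeU5-C46 in CG1142 (740 bp), Me18S-G1358a in drn (830 bp), Irbp-a in Irbp (868 bp), gcl-a in gcl (885 bp) and Me28S-U3344a in Stt3A (923 bp). The other 3, without a host, lay in egr. The members nearest to the limits were abba-a at 493 bp inside and U49:66Da at 503 bp outside the narrower one, and U49:66Db at 978 bp inside and Psi28S-1175a of RpS16 at 1014 bp outside the wider one.

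SnoRNAs of ribosomal protein hosts made up 22 of the 39 within 1000 bp, which is 29.7% of the 74 snoRNAs such hosts hold. Among snoRNAs of other protein-coding hosts 6 of 123 (4.88%) did, and 6 of 46 in non-coding hosts. Distances differed as well: the median snoRNA lay 917.5 bp from its host TSS in ribosomal protein hosts and 2507 bp in other protein-coding hosts. The part of this distance in the counts was not tested.

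Where a host has a summit at its TSS, the distance from a snoRNA to that summit is largely set by its distance to the TSS, so the following counts describe the layout and test nothing. In the 37 hosts with an optimal TSS summit, 13 of the 17 snoRNAs within 500 bp of the host TSS lay within 1000 bp of an optimal summit, and so did 18 of 30 at 501 to 1000 bp. At 1001 to 2000 bp the count was 1 of 30, and farther in it was 1 of 24. In the 51 hosts without such a summit it was 0 of 30 up to 1000 bp from the TSS, and 1 of 142 over all distances. For all 34 hosted snoRNAs within 1000 bp of a summit, the summit lay upstream of the snoRNA. It lay within 500 bp of the host TSS for 31 of these and nearer to the host TSS than to the snoRNA start for 32. The exceptions to the last count were abba-a in tn and Me18S-G1358a in drn, whose summits lay 3166 and 2057 bp from the host TSS. Counted once each, 23 of the 25 summits lay nearer to the host TSS. The median snoRNA lay 1528 bp from its host TSS, 56 in the gene's first intron and 58 in its second.

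**Figure D2:**
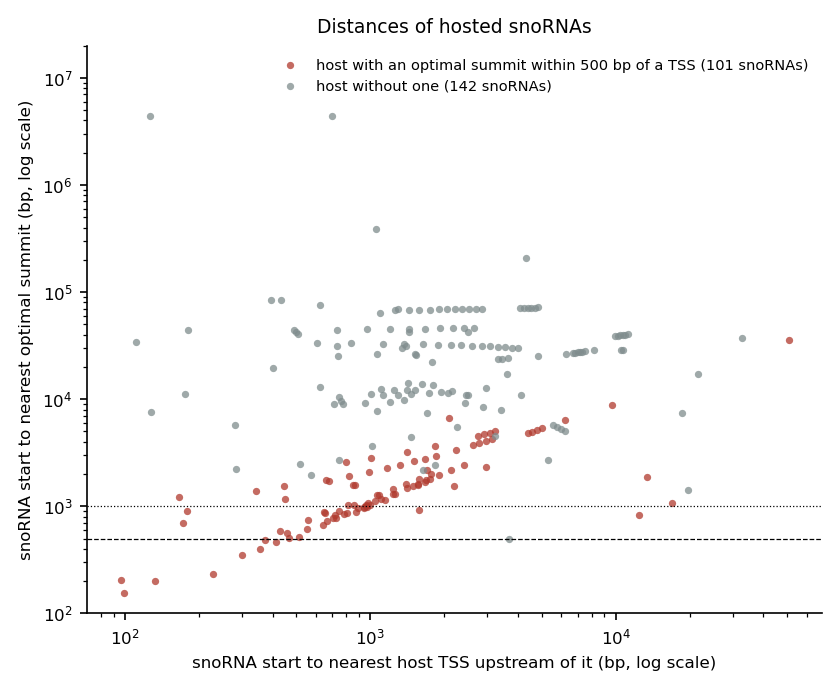
Distance from each of the 243 hosted snoRNAs to the nearest optimal summit (vertical, bp, log scale) against its distance to the nearest host TSS upstream of it (horizontal, bp, log scale), with red points for hosts with an optimal TSS summit and grey for hosts without. The dashed and dotted lines mark 500 and 1000 bp; red points run along the diagonal, and 1 grey point (abba-a) lies under the dotted line.

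The kind of each snoRNA was read from its name. Of 104 C/D snoRNAs 21 (20.2%) lay within 1000 bp of an optimal summit, of 114 H/ACA snoRNAs 12 (10.5%), of 16 scaRNAs 2 (12.5%) and of 35 with no kind in the name 4 (11.4%). Over all genes the share was 10.3%, to which all kinds but C/D lay close. Several of these snoRNAs share a host, and the difference between kinds was not tested. Counted by snoRNA, the host had an optimal TSS summit for 36 of 95 hosted C/D snoRNAs (37.9%) and 50 of 105 H/ACA snoRNAs (47.6%), the opposite order. Counted by host, 16 of 33 hosts of C/D snoRNAs and 14 of 29 hosts of H/ACA snoRNAs had one, so the shares by host were alike. In hosts with a summit the median distance to the TSS was 883.5 bp for C/D and 1154 bp for H/ACA snoRNAs. The boxes followed the names: a C box and a D box both matched in 69.2% of C/D snoRNAs and in 0.0% of H/ACA, and an ACA box matched in 94.7% of H/ACA snoRNAs and in 6.73% of C/D.

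A larger share of host promoters than of snoRNAs lay at a summit. Of the 88 hosts, 37 (42.0%, interval 31.6 to 53.0%) carried an optimal summit at most 500 bp from an annotated TSS, and together they hold 101 snoRNAs. Over all genes 9.25% had one, and over protein-coding genes 10.8%. The strongest 3237 peaks of replicates 1, 2 and 3 gave 40, 39 and 36 hosts (38.3 ± 2.08, SD, n = 3), and 31 hosts had one in all 3. These counts were 45.5%, 44.3% and 40.9% of hosts, against 12.5%, 11.9% and 9.92% of protein-coding genes. In the pooled list 54 hosts (61.4%, interval 50.4 to 71.6%) had a summit, against 33.3% of protein-coding genes. That list includes the optimal peaks, and outside them 28 hosts (31.8%) had a summit, against 26.1%. At 18 of the 37 hosts the summit also lay within 500 bp of another gene's TSS, so the gene it belongs to cannot be told apart there.

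Ribosomal protein genes were the largest class of hosts. Among 29 such hosts 20 (69.0%, interval 49.2 to 84.7%) had an optimal summit, against 41 of 59 (69.5%, interval 56.1 to 80.8%) ribosomal protein genes with no snoRNA. In the replicates the shares were 71.3% ± 7.18 for these hosts and 67.8% ± 4.48 for the genes with no snoRNA (SD, n = 3 each), so they differed by less than the spread between replicates. The 59 include copies of duplicated genes. Of such copies RpL10Aa, RpL37-2, RpS10a, RpS15Ab, RpS19b, RpS28a and RpS5b had no optimal summit, while RpL34a, RpL34b, RpS14a and RpS14b had one. The share depends on counting them, and their part in it was not tested. Large-subunit hosts had a summit in 12 of 16 and small-subunit hosts in 8 of 13. Hosts of ribosomal proteins with 2 or more snoRNAs had one in 12 of 16, and those with 1 snoRNA in 8 of 13.

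Other protein-coding hosts had summits in a smaller share than ribosomal protein hosts and in a larger share than other protein-coding genes; neither difference was tested. The count was 15 of 51 (29.4%, interval 17.5 to 43.8%), against 1424 of 13806 other protein-coding genes without a snoRNA (10.3%, interval 9.81 to 10.8%). The replicate shares were 30.7% ± 2.26 for these hosts and 11.0% ± 1.32 for the other genes (SD, n = 3 each). The hosts differ from those genes in other measured ways: they have 2.08 annotated TSSs on average, against 1.4, a median length of 5738 bp, against 2169 bp, and a divergent neighbouring gene at 62.7%, against 33.1%. Among genes with 1 annotated TSS the counts were 5 of 23 hosts (21.7%), against 669 of 10179 other genes (6.57%). The part of the other features was not tested.

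**Figure D3:**
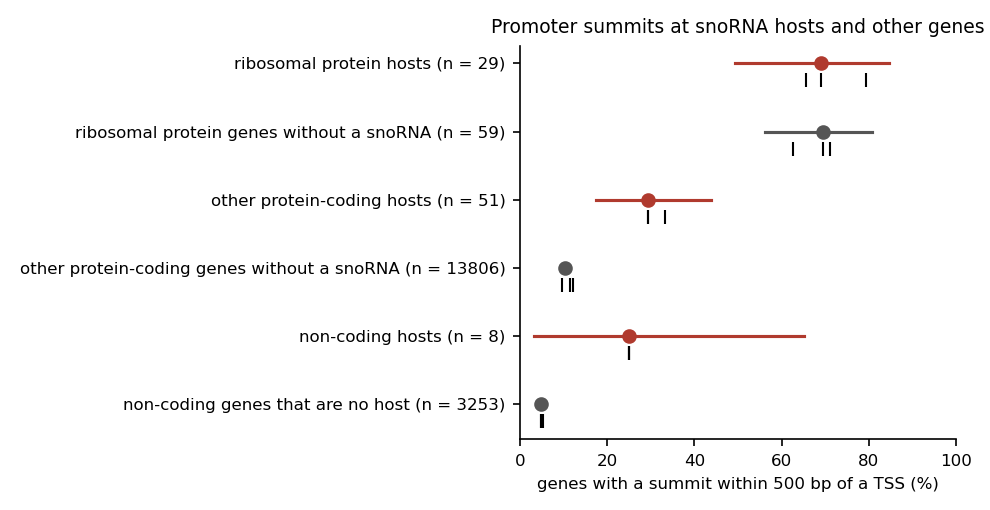
Share of genes (%) with a summit within 500 bp of a TSS for host classes (red) and the genes they are set against (grey), with lines for exact 95% intervals over genes and ticks for the strongest 3237 peaks of each replicate. Ribosomal protein hosts (69.0%) and ribosomal protein genes without a snoRNA (69.5%) lie side by side; other protein-coding hosts (29.4%) lie to the right of other protein-coding genes (10.3%).

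Grouped by what they encode, a grouping made after the values were seen, the hosts with a summit were 20 of 29 for ribosomal proteins, 2 of 3 for translation factors, 1 of 8 for pre-mRNA splicing and binding, 1 of 7 for chromatin and transcription, 0 of 7 for nucleolar or ribosomal RNA processing, 2 of 8 non-coding and 11 of 26 of any other kind. Over protein-coding genes the share was 10.8%, at which counts of 0 to 2 in classes of 7 or 8 are no result about the class. The translation factor hosts were eEF1alpha1, the elongation factor (signal 324, rank 1049), and kra, an initiation factor 5 relative that holds 8 snoRNAs (signal 216, rank 2032). The splicing host was SC35, which encodes an SR protein (signal 185, rank 2571, with no peak overlapping it in replicate 3), and the chromatin host was lola, a family of zinc-finger transcription factors made from many isoforms (signal 521, rank 441). The nucleolar hosts had no summit in the pooled list either (0 of 7, against 33.3% of protein-coding genes, again too few genes to read). Nop60B, Fib and nop5, which encode core proteins of the snoRNA particles, are among them, and the class holds 13 snoRNAs.

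The strongest host peak lay at CG1142 (3R, 7473802 to 7474102), with its summit 181 bp upstream of the TSS, a signal of 1110 and rank 70, and ranks of 80, 57 and 125 in replicates 1, 2 and 3. CG1142 holds 1 scaRNA. Stt3A, a catalytic subunit of the oligosaccharyl transferase, followed with a signal of 939, and its ranks were 204, 150 and 66. Its summit lay 392 bp upstream and also near bves. RpL14 (signal 811, ranks 186, 134 and 439) and RpL28 (734, ranks 250, 203 and 306) were the strongest ribosomal protein hosts, and their summits also lay near the starts of Nelf-E and eIF1. Every one of these peaks was among the strongest 500 of each replicate.

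Uhg4 (691) came next and was the strongest non-coding host. RpL23A (680), Msp300 (676), RpL13A (659), RpL30 (594), CG12316 (548), RpS4 (530), RpS5a (526) and lola (521) followed. Msp300 encodes a nesprin, which links nuclei to the cytoskeleton, and its snoRNA lies 50634 bp into the gene. RpS16 (482), RpL22 (478), drn (445), RpL11 (431), RpL3 (398), Dys, which encodes dystrophin (383), and RpL17 (373) completed the 20 strongest hosts, of which 12 are ribosomal protein genes.

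**Figure D4:**
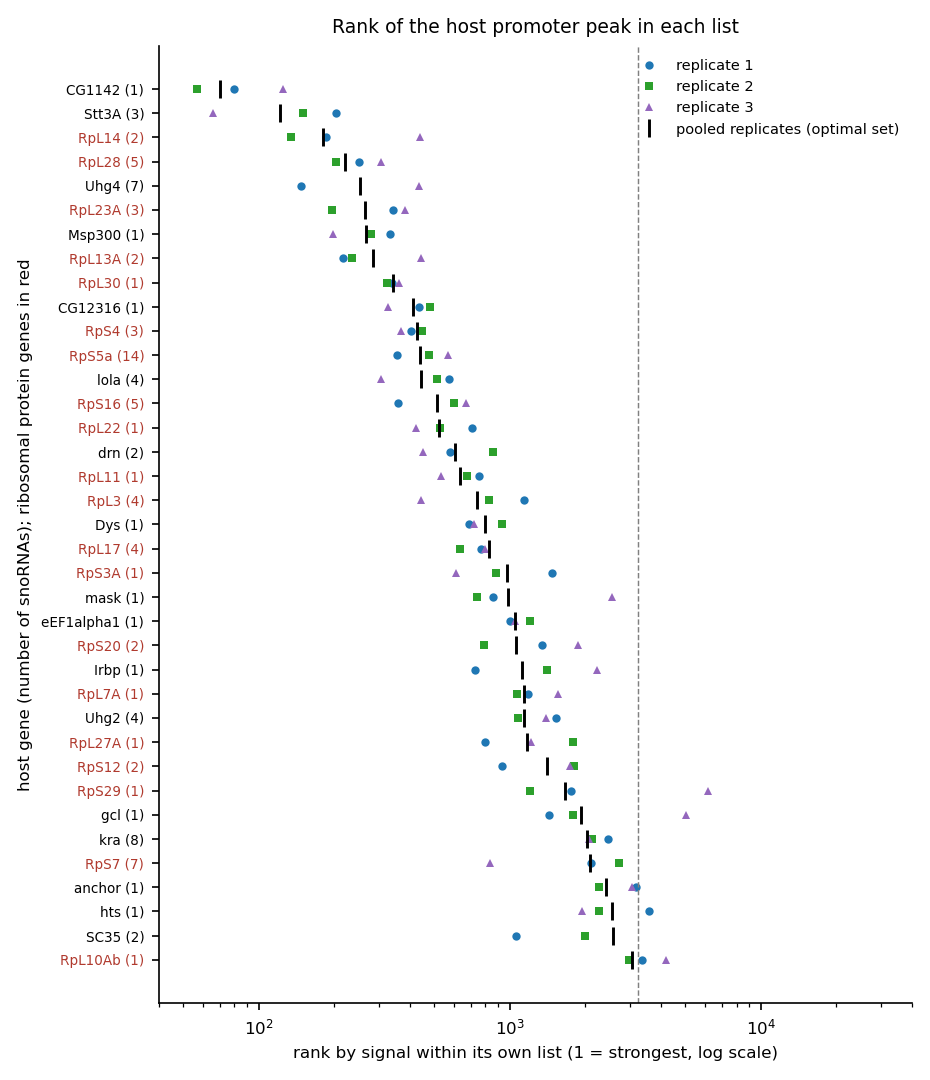
Rank by signal (1 = strongest, log scale) of the promoter peak at each of the 37 hosts, in the optimal set (bars) and in replicates 1 to 3 (symbols), with the number of snoRNAs in brackets and ribosomal protein hosts in red. The dashed line marks rank 3237; 35, 36 and 33 hosts lie left of it in replicates 1, 2 and 3, and Uhg4 and SC35 lack a symbol in 1 replicate each.

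Not every host peak was strong in every replicate. In replicates 1, 2 and 3, 35, 36 and 33 of the 37 host peaks ranked among the strongest 3237. RpL10Ab and hts, which encodes adducin, lay outside in replicate 1, Uhg4 in replicate 2, and RpL10Ab, RpS29, SC35 and gcl in replicate 3. The median rank of the 37 in the optimal set was 794, and 29 lay among the strongest 1618 peaks.

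The 5 hosts with most snoRNAs, Arpc2 (17), Uhg1 (16), dom (15), RpS5a (14) and Uhg5 (11), hold 73 in all, and RpS5a was the 1 with an optimal summit, too few hosts to set against the 10.8% of protein-coding genes. Its summit lay 51 bp upstream of the TSS, while its snoRNAs lay 1556 to 4247 bp from a summit, so none of them counted as near one. Arpc2, a subunit of the Arp2/3 actin nucleator, had a pooled summit 16 bp upstream of its TSS at rank 4554, with ranks of 3329 and 3492 in replicates 1 and 2 and none listed in replicate 3. Uhg5 had a pooled summit at rank 3711, with ranks of 7432, 2860 and 11139. Uhg1 and dom, which encodes a chromatin remodeller, had no pooled summit within 500 bp of a TSS, and their nearest optimal summits lay 34087 and 20379 bp away. Hosts of 1 snoRNA had a summit in 18 of 52 (34.6%, interval 22.0 to 49.1%), and hosts of 2 or more in 19 of 36 (52.8%, interval 35.5 to 69.6%), with overlapping intervals.

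Between the optimal and pooled lists lay 17 hosts with a pooled TSS summit only. The highest ranked were Uhg5, then Rbfox1 at 3832, skd at 3952, RpL15 at 4333 and Arpc2. For the remaining 34 hosts no pooled summit lay within 500 bp of a TSS. The non-coding hosts ran the whole range. Of the 8, Uhg4 and Uhg2 had optimal summits, Uhg5, Uhg8 and lncRNA:CR31647 pooled ones at ranks 3711, 27514 and 27089, and Uhg1, Uhg3 and lncRNA:CR42491 none. The 2 of 8 (25%, interval 3.19 to 65.1%) stood against 155 of 3253 non-coding genes that are no host (4.76%). These sets differ in other measured ways: a divergent neighbouring gene at 62.5%, against 12.8%, and a median length of 1739.5 bp, against 556 bp. The summit at Uhg2 also lay within 500 bp of the TSS of Bka. The part of these features was not tested.

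Summits lay close to the TSS at ribosomal protein genes, with or without a snoRNA. Across the 37 hosts the median summit lay 66 bp upstream of the nearest host TSS (-66), and 32 (86.5%) lay upstream. For the 20 ribosomal protein hosts the median was -40 bp, with 19 (95%) within 100 bp of the TSS, and for the 41 ribosomal protein genes with a summit and no snoRNA it was -19 bp, with 36 (87.8%) within 100 bp. For the 17 other hosts it was -177 bp, with 4 (23.5%) within 100 bp, close to protein-coding genes without a snoRNA, which had a median of -170 bp, with 303 of 1465 (20.7%) within 100 bp and 86.8% upstream. The ribosomal protein host outside 100 bp was RpS20, at 158 bp upstream, and CG12316 was the 1 other host whose summit lay downstream, by 113 bp.

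**Figure D5:**
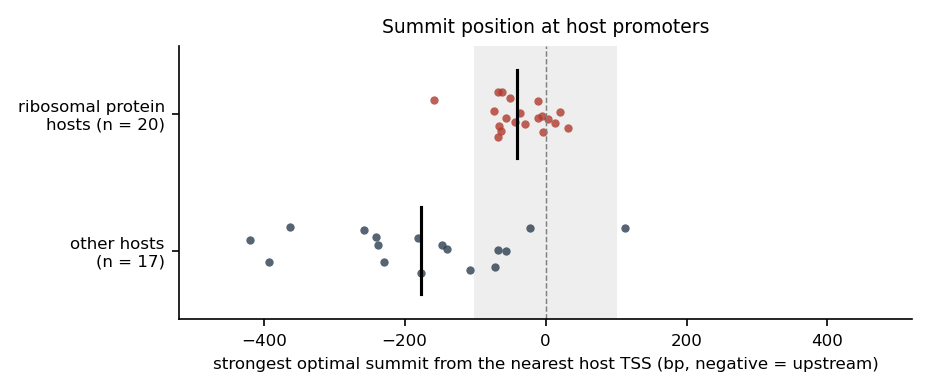
Position of the strongest optimal summit relative to the nearest host TSS (bp, negative = upstream) for ribosomal protein hosts and other hosts, 1 point per host with vertical scatter added for legibility, black bars for medians (-40 and -177 bp) and shading within 100 bp of the TSS. Of the ribosomal protein hosts 19 of 20 lie in the shaded band, against 4 of 17 other hosts.

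Motif matches, searched on both strands in 200 bp centred on a summit, were counted beside the same count at other summits. The core CGATA matched at 19 of the 37 host summits (51.4%) and at 13 of the 20 ribosomal protein host summits (65.0%), against 43.8% of the 333 optimal summits within 100 bp of a protein-coding TSS and 24.7% of all optimal summits. CGATA lies within TATCGATA, the longer element, which matched at 4 hosts (10.8%), all 4 in ribosomal protein genes (RpL28, RpS12, RpS29 and RpL10Ab, 20% of those), against 10.5% of the 333 and 1.82% of all. The pyrimidine run TCTTTC matched at 27.0% of host summits and 35.0% of ribosomal protein host summits, against 15.6% of the 333 and 14.1% of all. GAGAG matched at 18.9% and 10% of them, against 17.7% and 22.7%. Motif 1 core GGTCACAC matched at 8.11% of host summits, against 6.61% of the 333 and 0.989% of all, the E-box CACGTG at 8.11%, against 3.9% and 1.79%, CAGCTG at 5.41%, against 13.2% and 6.86%, and TATAAA at 29.7%, against 36.6% and 37.7%. The heat shock motif TTCTAGAA matched at 0 of the 37, against 0.463% of all. A match is a description of letters, and no factor was measured at these sites. In the 300 bp promoters, from 250 bp before to 50 bp after the start, TATCGATA matched in 7 of 37 hosts with a summit (18.9%) and in 11 of 51 without (21.6%), against 9.36% of protein-coding genes. TATAAA matched in 40.5% and 49% of these hosts, against 45.8%. Ribosomal protein hosts and ribosomal protein genes without a snoRNA had CGATA in 72.4% and 74.6% of these promoters. TATCGATA matched in 27.6% and 30.5%, TCTTTC in 31.0% and 39.0%, GAGAG in 17.2% and 16.9%, and GGTCACAC in 17.2% and 15.3%. High shares of CGATA, TATCGATA and TCTTTC were thus not particular to the ribosomal protein genes that host snoRNAs.

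The 26 snoRNAs without a host were spread over several kinds of site. Of these, 12 lay in no gene, 10 in an intron on the opposite strand only, and 4 in an exon. Optimal summits within 500 bp were counted for 2 (7.69%, against 7.79% of all genes; 1 without replicate 1, 1 without replicate 2) and within 1000 bp for 5 (19.2%, against 10.3%). Besides snoRNA:185, 4 lay in introns of egr, the fly tumour necrosis factor gene, on its opposite strand: Or-ACA6 (425 bp), Or-CD13 (572 bp), Or-ACA7 (693 bp) and scaRNA:MeU1b-A234 (826 bp). For 3 of them the nearest optimal summit was the same one (signal 407, rank 717, ranks 646, 965 and 710 in the replicates), with Or-ACA7 nearer to a weaker one (168, rank 2960). Only the pooled list gave summits within 500 bp for others. In that list 14 of the 26 had one, against 29.1% of all genes, a difference that was not tested. Some of the 14 lie close together, so they are not independent. The 5 strongest were at Psi18S-176 (66 bp, rank 3703), Or-CD13 (368 bp, rank 4355), scaRNA:MeU1:95C-A24 (408 bp, rank 5186), a snoRNA of 2R whose name is a coordinate (50 bp, rank 6730) and CG43051-a (30 bp, rank 6965).

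U3, the C/D snoRNA that acts in the first cleavages of the ribosomal RNA precursor rather than as a modification guide, has 3 annotated genes, and each lies in no other gene. None had an optimal summit within 1000 bp, and with 3 genes and an all-gene share of 10.3% this zero is no result about U3. U3:54Aa and U3:54Ab, which lie 41028 and 42915 bp from the nearest optimal summit, had pooled summits at 709 and 251 bp (ranks 15641 and 11530). U3:9B on X was 49596 bp from an optimal and 1271 bp from a pooled summit.

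Genes that build or use snoRNA-protein particles, and the polymerase that makes ribosomal RNA, were set beside the hosts. Of 35 such genes 3 carried an optimal TSS summit, at most 500 bp away, and 12 a pooled one, beside 10.8% and 33.3% of protein-coding genes. Ns2, a nucleolar GTPase, had the strongest (signal 859, rank 162, replicate ranks 223, 142 and 170), followed by pont, an AAA+ ATPase of the particle assembly machinery (388, rank 768, ranks 523, 642 and 2132), and l(3)72Dn (262, rank 1482, ranks 936 and 1291 in replicates 1 and 2, none listed in replicate 3). Each of these summits also lay within 500 bp of another gene's TSS (POSH, Sirt6 and Tmx3), so the gene it belongs to cannot be told apart. Among the core proteins of C/D particles (Fib, nop5, Nop56, hoip) 0 of 4 had an optimal summit, and among those of H/ACA particles (Nop60B, NHP2, Gar1, Nop10) 0 of 4. Of the 8 RNA polymerase I genes 0 had an optimal and 3 a pooled summit. At a share of 10.8%, counts of 0 in sets of 4 or 8 are no result about these genes. Among the strongest peaks of single replicates, NHP2 had a TSS summit in replicates 1 and 3, Fib in replicate 3 and hoip in replicate 1. The other core genes and the RNA polymerase I genes had none there.

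By chromosome arm, hosts with an optimal summit numbered 5 of 14 on 2L, 7 of 22 on 2R, 8 of 21 on 3L, 11 of 20 on 3R, 1 of 1 on 4 (RpS3A) and 5 of 10 on X. The 96 snoRNAs on 2R were the most of any arm, and 12 of them lay within 1000 bp of an optimal summit. No share of all genes was counted by arm, so these numbers do not compare the arms. Few snoRNA sequences repeat: 4 occurred at 2 places in the genome, and none of these lay within 1000 bp of an optimal summit.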

How the data were processed

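The deposited peak lists of 3 biological replicates, their pool and the authors' optimal set were used. Per the labels, coordinates are dm6 and chromatin was sheared to 200 to 800 bp. Per the deposited notes, the lists were called against a control alignment, and the optimal set was chosen by irreproducible discovery rate; neither the aligner, the caller nor the threshold is named there. The deposited signal (column 7) has no stated scaling, so peaks were ranked by it within each list only. Gene positions were those of Ensembl release 115 and sequences those of the RefSeq Release 6 genome, and no peak lies past an arm's end. A shared-strand intron of any transcript made a gene a host (the shortest intron where several did). A TSS is any annotated transcript start or the gene's 5′ end, and a snoRNA starts at its 5′ end. Python 3.11.15, pandas 2.3.3, numpy 2.4.6 and scipy 1.17.1 were used; the host and distance code was tested on simulated data. The members and lists were chosen with earlier results of these data known. Named are the snoRNAs within 1000 bp of an optimal summit, the 20 strongest hosts, the 5 with most snoRNAs, snoRNAs without a host, U3 genes and pathway genes with an optimal summit; other names were chosen after their values were seen. For 1 host gene, nothing is reported here by name. Naf1, Mpp10 and pes matched no gene or another gene and were left out. No test was made with 1 group. Alternatives were windows of 250, 1000 and 1500 bp, peak intervals, the strongest 1618 optimal and 15000 pooled peaks, pooled peaks outside the optimal set, each replicate, hosts on either strand and the 5′ end alone.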

Additional observations from a re-analysis of the deposited data

How the results depend on the processing

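Over 103 recounts of 10 results, 85 lay within 1.5 times of the reported count and 18 did not. The cause of the 18 was not tested. For the 11 snoRNAs within 500 bp of an optimal summit, the count was 5 with a 250 bp window and 39 with 1000 bp. Those counts are 1.86% and 14.5%, against 5.29% and 10.3% of all genes. Peak intervals gave 18, and the strongest 1618 peaks gave 7 (2.6%, against 4.75%). Leaving out each replicate in turn gave 6 to 7. Those left-out sets keep 2284, 2139 and 2333 of the peaks, since a peak then had to be among the strongest of both other replicates. For the 39 within 1000 bp, a 1500 bp window gave 61 (22.7%, against 12.6% of all genes). For the 47 near a pooled summit, windows of 250 and 1000 bp gave 24 and 100 (8.92% and 37.2%, against 18.8% and 40.5%). For the 54 hosts with a pooled TSS summit (61.4%, against 33.3% of protein-coding genes), pooled peaks outside the optimal set gave 28 (31.8%, against 26.1%). The hosts thus stood nearer to protein-coding genes outside the optimal set. For the 2 snoRNAs without a host within 500 bp, windows of 250 and 1000 bp gave 1 and 5, peak intervals 4, the strongest 1618 peaks 1 and hosts on either strand 1 of 14 (7.14%, against 7.69% of 26), and leaving out each replicate gave 1 to 2. No paired analysis was possible because there is 1 group. Unknown read depth limits every count.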
